A study of Mus musculus with 6 samples.

Results

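The 40 genes described here act in DNA replication or in mitosis and are transcribed mainly in dividing cells. They were chosen as a named set of 19 replication genes and 21 mitosis genes, to be kept where the mean over the 6 libraries was at least 0.5 FPKM. FPKM is a count of sequenced fragments scaled by transcript length and by library size, so that levels can be set side by side between genes. All 40 were kept, out of 23351 genes listed and 13408 that passed the same limit, and the lowest of them, Cdc6, had a mean of 5.21 FPKM, so no member lay near the limit. The libraries were made from total RNA of repair tissue of C57BL/6 mice, taken as periosteum with quadriceps from the surface of injured bone. There were 3 libraries from mice given empty liposomes (Empty-lip) and 3 from mice given liposomes named clodronate in the deposited table (Clod-lip), an agent taken up by phagocytes, which it kills. Both groups thus carried the injury and received liposomes. The labels used here give no sex, age, dose or day after injury, and leave unsaid whether each library is a different animal. The spread behind every p-value is that among these libraries and may be technical.

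Replication starts when origins are licensed by loading of the MCM helicase with the help of Cdc6 and Cdt1, and it is fired when GINS joins that helicase. Genes of this phase are known targets of E2F factors, which are released from repression late in G1. Mitosis is driven by cyclin B with Cdk1, checked at the kinetochore, and ended when the anaphase promoting complex marks cyclins and securin for destruction. Genes of this later phase are known for a CHR element in their promoters, bound by the MuvB core complex, and for CCAAT boxes bound by NF-Y. In healing muscle and bone surface, dividing cells are known to include myoblasts, fibroblasts, periosteal progenitors, endothelial cells and part of the leukocytes. Levels in bulk tissue cannot tell fewer dividing cells from less RNA of these genes per cell.

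The classes, defined by function, differed in the sequence around their transcription starts. RefSeq promoters on GRCm38.p6, the assembly named mm10 in the processing notes, were matched for 31 of the 40 genes, 15 of replication and 16 of mitosis. Ccna2, Ccne2, Aurkb, Foxm1, Gins1, Gins2, Kif20a, Mcm4 and Tpx2 had no entry. A window from 250 bases before to 50 bases after each start was searched on both strands, and a gene with several windows (Mcm7, Prc1 and Uhrf1 here) counted where any of them matched. A CHR element, spelled TTTGAA or TTCGAA, was present for 13 of 16 mitosis genes and 2 of 15 replication genes, and for 16.2% of the 9906 genes that passed the expression limit and had a promoter. An E2F element, spelled TTTCCCGC, TTTGGCGC, TTTGCCGC or TTTCGCGC, was present for 7 of 15 replication genes and 1 of 16 mitosis genes, against 4.55% of those 9906 genes. The 1 mitosis gene with an E2F element was Cdk1, and the replication genes with a CHR element were Mcm2 and Mcm7. A CCAAT box was present for 14 of 16 mitosis genes and 9 of 15 replication genes, against 42.7%. Median GC content of the windows was 59.7% for mitosis genes, 59.3% for replication genes and 60.7% for the 9906 genes. Over all 27025 genes with a promoter the shares were 21.7% for the CHR element, 2.60% for the E2F element and 41.1% for the CCAAT box. These are matches of letters and show no binding. They do not depend on the expression values.

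Promoter sequence is shown for 3 mitosis genes, as the standard proliferation marker, a topoisomerase with the most CHR matches of the set, and the mitosis gene of smallest p, and for 2 helicase genes with overlapping E2F elements. Each run is the 200 bases before the start, read 5′ to 3′ in the direction of transcription. Capitals mark matches of the 3 motifs in either orientation (CCAAT reads ATTGG and TTTGAA reads TTCAAA on the other strand).
Mki67: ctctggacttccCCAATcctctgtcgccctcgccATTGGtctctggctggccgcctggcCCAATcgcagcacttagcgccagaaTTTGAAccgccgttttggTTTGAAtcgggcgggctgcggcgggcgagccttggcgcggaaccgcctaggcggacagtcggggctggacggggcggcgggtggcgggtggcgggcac
Top2a: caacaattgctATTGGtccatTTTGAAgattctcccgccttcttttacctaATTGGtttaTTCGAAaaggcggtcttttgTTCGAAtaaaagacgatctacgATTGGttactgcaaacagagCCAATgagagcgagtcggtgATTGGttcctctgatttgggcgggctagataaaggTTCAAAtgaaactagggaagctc
Ube2c: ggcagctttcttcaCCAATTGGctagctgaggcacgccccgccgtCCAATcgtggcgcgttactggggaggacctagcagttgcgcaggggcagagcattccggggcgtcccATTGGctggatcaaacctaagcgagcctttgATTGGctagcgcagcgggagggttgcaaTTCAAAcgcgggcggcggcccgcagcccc
Mcm5: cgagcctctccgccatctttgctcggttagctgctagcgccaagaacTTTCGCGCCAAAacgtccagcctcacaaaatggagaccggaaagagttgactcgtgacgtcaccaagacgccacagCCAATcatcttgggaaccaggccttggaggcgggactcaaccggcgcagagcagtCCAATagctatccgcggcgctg
Mcm6: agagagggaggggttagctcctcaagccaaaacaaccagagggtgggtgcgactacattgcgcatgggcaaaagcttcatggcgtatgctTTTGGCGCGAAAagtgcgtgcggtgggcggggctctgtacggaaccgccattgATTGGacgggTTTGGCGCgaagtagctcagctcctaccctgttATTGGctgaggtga
The Mki67 run lies at chr7:135716380-135716579 on the minus strand, that of Top2a at chr11:99024190-99024389 on the minus strand and that of Ube2c at chr2:164769729-164769928 on the plus strand. Those of Mcm5 and Mcm6 lie at chr8:75109309-75109508 on the plus strand and chr1:128359706-128359905 on the minus strand. In Mcm5 and in the distal site of Mcm6, E2F matches on opposite strands overlap and are capitalised as 1 block, and in Ube2c a CCAAT box and its reverse overlap in the most distal block.

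**Figure D1:**
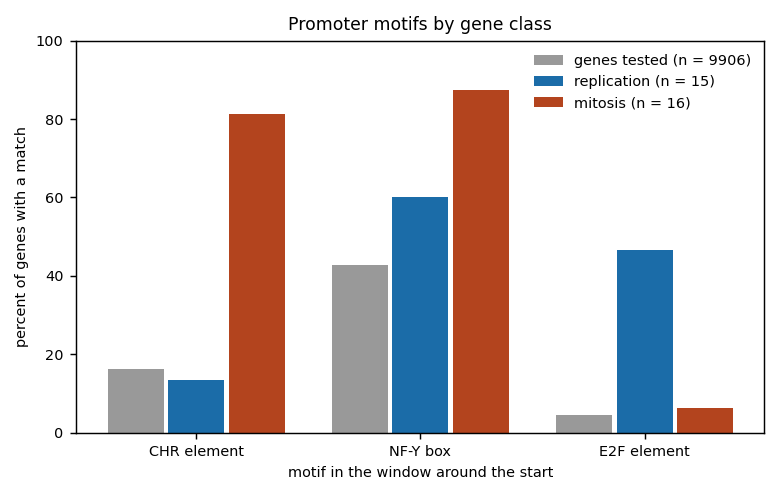
Percent of genes (vertical axis) with at least 1 match of each motif (horizontal axis, the NF-Y box being the CCAAT box) among genes tested, replication genes and mitosis genes. CHR matches are frequent in the mitosis class (13 of 16) and E2F matches in the replication class (7 of 15).

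All 40 genes were detected in every library, at levels that placed most of them above the median gene tested. Pcna, the sliding clamp of the replication fork, was highest with a mean of 204 FPKM, followed by Rrm2, the regulated subunit of ribonucleotide reductase, at 93.4 FPKM and Ube2c, a ubiquitin conjugating enzyme of the anaphase promoting complex, at 77.2 FPKM. Cdc6 was lowest, 39.2-fold under Pcna in mean FPKM. The median gene mean was 28.2 FPKM for replication and 25.8 FPKM for mitosis. The ratio of the geometric mean of mitosis genes to that of replication genes stayed between 0.939 in Empty-lip 2 and 1.04 in Empty-lip 3, with Clod-lip libraries at 1.01, 1.01 and 0.963. The 6 MCM genes, whose proteins assemble in equal number into 1 ring, lay within 1.83-fold of each other in mean FPKM, from 28.0 FPKM for Mcm4 to 51.3 FPKM for Mcm6. Whether neighbours in the order of mean FPKM differ in level was not tested. The coefficient of variation over the 6 libraries, both groups together, was 6.68% for Mki67, the smallest, and 26.6% for Gins1, the largest. It includes any difference between the groups, as in Gins1.

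**Figure D2:**
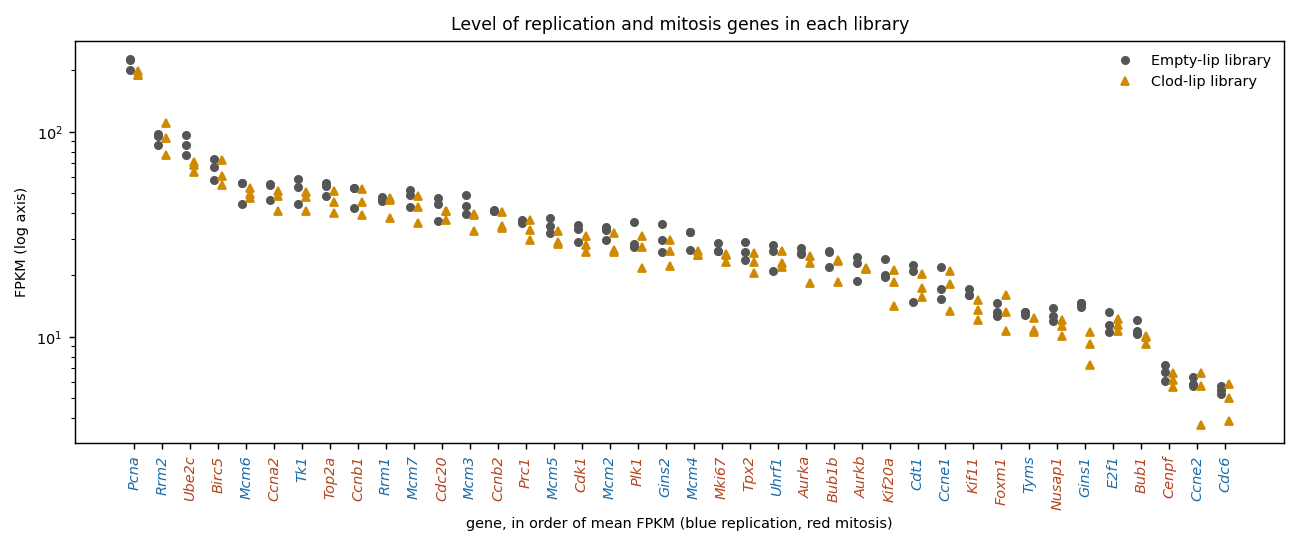
FPKM of each gene (log axis) in each library, with genes in order of their mean; circles are the 3 Empty-lip libraries and triangles the 3 Clod-lip libraries. Levels run from 204 FPKM for Pcna to 5.21 FPKM for Cdc6, and the symbols of both groups lie close together for most genes, with Gins1 the clearest exception.

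Most replication and mitosis genes differed little between Clod-lip and Empty-lip tissue. The log2 changes of the 40 genes were all negative, from -0.63 for Gins1 to -0.01 for Rrm2. The contrast addresses how repair tissue differs once phagocytes have been targeted. By limma on log2(FPKM + 1), with p-values adjusted by Benjamini-Hochberg over all 13408 genes and a limit of 0.05, 1 of the 40 genes fell, 0 rose and 39 did not pass. Over all genes 4.05% passed, 1.21% lower and 2.84% higher in Clod-lip, so 1 of 40 (2.5%) is near the background. At an unadjusted p under 0.05 there were 4 of 40, all lower, 2 in each class (Gins1 and Mcm4, Ube2c and Kif11), against 10.4% of all genes lower at that limit. The median log2 change was -0.16 for replication genes and -0.17 for mitosis genes, beside -0.01 for all genes tested, whose 5th and 95th percentiles were -0.47 and 0.58. A negative sign was seen for 40 of 40 members and 51.9% of all genes. Genes transcribed together are not independent, so this count is a description of the libraries. The authors' deposited table called 1 of the 40, Gins1, with q = 0.0455, and the next smallest q was 0.117 for Ube2c; that table called 12.2% of the genes it tested.

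The intervals were narrow enough to bound most of the changes. The 95% interval of the change lay within 1.5-fold either way for 37 of 40 members, against 62.5% of all genes, and within 2-fold for 40 of 40, against 89.3%. The 3 members whose interval passed 1.5-fold, named after their values were seen, were Gins1, Kif20a and Ccne2, all on the lower side. The median residual SD on the log2 scale was 0.17 for replication genes, 0.14 for mitosis genes and 0.16 for all genes tested. In 11 of 40 members the 3 Clod-lip libraries all lay below the 3 Empty-lip libraries, against 13.4% of all genes. These 11 were Gins1, Mcm3, Mcm4, Pcna and Tyms among replication genes and Ube2c, Kif11, Aurka, Ccnb2, Bub1 and Mki67 among mitosis genes.

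**Figure D3:**
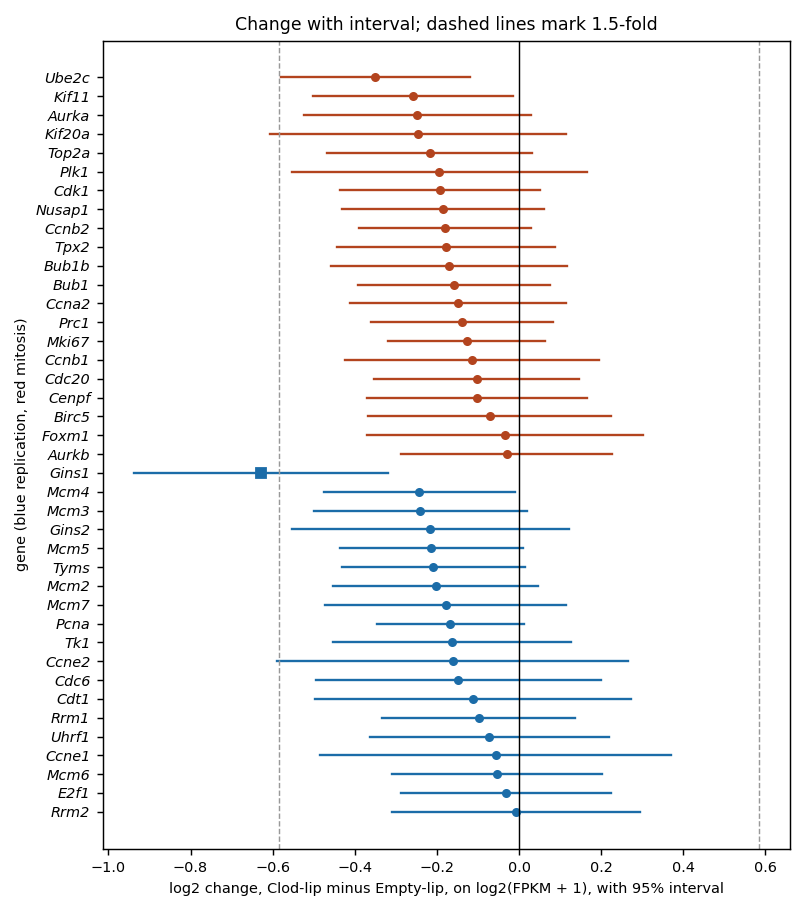
Log2 change of each gene, Clod-lip minus Empty-lip on the log2(FPKM + 1) scale, with its 95% interval from limma; the square marks the 1 gene that passed (Gins1, -0.63) and dashed lines mark 1.5-fold. All 40 points lie left of 0, and 37 intervals stay between the dashed lines.

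**Figure D4:**
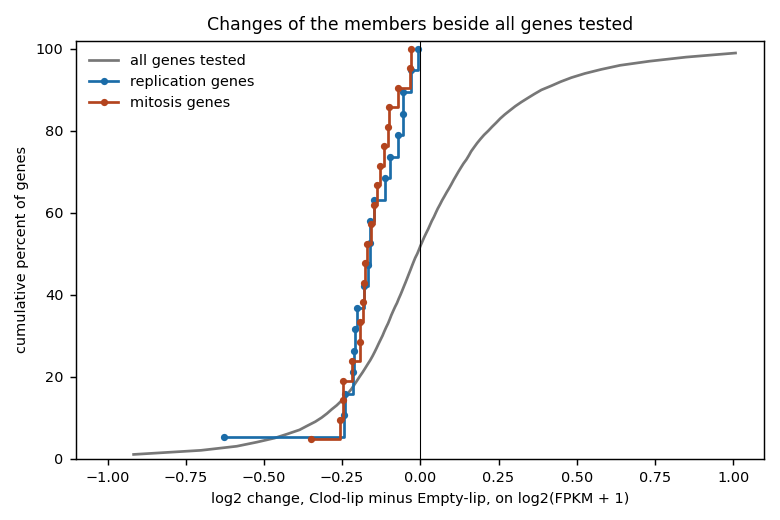
Cumulative percent of genes (vertical axis) by log2 change (horizontal axis) for replication genes, mitosis genes and all genes tested. The replication curve runs from -0.63, which is Gins1 alone, to -0.01 and the mitosis curve from -0.35 to -0.03, with medians of -0.16 and -0.17, while that of all genes crosses 50% near -0.01.

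Among the regulators of entry into S phase, 0 of 4 passed, with 0 at an unadjusted p under 0.05 and 0 called in the authors' deposited table. Ccne1 and Ccne2 encode the E cyclins that activate Cdk2. Ccne1 averaged 18.1 ± 3.43 FPKM over Empty-lip libraries, against 17.5 ± 3.79 FPKM over Clod-lip libraries (SD, n = 3 each, as throughout), with a log2 change of -0.06 and an interval from -0.48 to 0.37. Ccne2 stood at 6.00 ± 0.326 and 5.38 ± 1.49 FPKM, with Clod-lip 2 at 3.72 FPKM and Clod-lip 1, the highest of the 6, at 6.63 FPKM. E2f1, an activating E2F factor, stood at 11.7 ± 1.33 and 11.4 ± 0.725 FPKM (log2 -0.03, interval -0.29 to 0.23). Uhrf1, which keeps DNA methylation through replication, stood at 25.0 ± 3.64 and 23.6 ± 2.18 FPKM. For these 4 genes the groups overlapped, and the lowest library was an Empty-lip one for E2f1 and Uhrf1. Exons of Ccne2 overlap those of Ints8 on the opposite strand, and whether strand was used in counting is not given in the sources used here.

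Origin licensing and helicase genes held the 1 call. Gins1, the PSF1 subunit of the GINS complex that completes the active helicase, stood at 14.6, 14.6 and 13.9 FPKM in Empty-lip 1, 2 and 3 and at 9.24, 7.30 and 10.6 FPKM in Clod-lip 1, 2 and 3. The groups did not overlap, and every Clod-lip library lay at least 3 FPKM below every Empty-lip library. Gins1 fell from 14.4 ± 0.407 to 9.04 ± 1.65 FPKM, a log2 change of -0.63 ± 0.13 (SE) with an interval from -0.94 to -0.32 (limma adjusted p = 0.0465). On mm10 the gene lies on chromosome 2 from 150905400 to 150931280 on the plus strand, and no exon of another annotated gene overlaps its exons. The call was lost in 9 of 16 alternatives, among them 5 of the 6 that leave out a library, with an adjusted p between 0.0308 and 0.161 over all 16; without Clod-lip 2 it was kept with a log2 change of -0.50. Gins2, the PSF2 subunit of the same complex, stood at 29.6, 35.6 and 26.0 FPKM in Empty-lip and 22.1, 26.3 and 29.7 FPKM in Clod-lip. The Gins2 groups overlapped (log2 -0.22, limma adjusted p = 0.444). Whether Gins1 differed more than Gins2 was not tested, and exons of Gins2 overlap those of Gse1 on the opposite strand.

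The 6 genes of the MCM ring did not pass. Mcm4 stood at 26.4, 32.4 and 32.6 FPKM in Empty-lip and 26.2, 25.0 and 25.1 FPKM in Clod-lip. Its groups did not overlap, by a margin of less than 1 FPKM to Empty-lip 1 (log2 -0.24 ± 0.10, interval -0.48 to -0.01, limma adjusted p = 0.212). Mcm3 stood at 39.7, 49.2 and 43.4 FPKM in Empty-lip and 39.6, 32.8 and 39.2 FPKM in Clod-lip, again without overlap (log2 -0.24, limma adjusted p = 0.260). In both genes Empty-lip 1 was the Empty-lip library nearest to Clod-lip. Mcm5, at 32.0, 37.8 and 34.7 FPKM against 32.6, 28.3 and 28.8 FPKM, had a log2 change of -0.21 (limma adjusted p = 0.248). Mcm2, at 29.8, 34.3 and 33.3 FPKM against 32.1, 25.9 and 26.4 FPKM, had one of -0.20 (limma adjusted p = 0.324). In Mcm2 and Mcm5 Clod-lip 1 lay within the Empty-lip range and the other Clod-lip libraries below it. Mcm7 stood at 42.9, 51.9 and 49.3 FPKM against 48.6, 35.9 and 43.0 FPKM (log2 -0.18, limma adjusted p = 0.468). Mcm6 stood at 44.4, 56.3 and 56.4 FPKM against 53.3, 47.6 and 49.6 FPKM (log2 -0.05, limma adjusted p = 0.830), and its lowest library was Empty-lip 1. Exons of Mcm7 overlap those of Ap4m1 and Cops6 on the opposite strand, and the microRNA genes Mir25 and Mir93 on the same strand. The loading factors had similar small differences: Cdc6 stood at 5.50 ± 0.239 and 4.92 ± 1.01 FPKM (log2 -0.15) and Cdt1 at 19.4 ± 3.98 and 17.7 ± 2.40 FPKM (log2 -0.11).

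At the fork and in nucleotide supply 0 of 5 genes passed, with 0 at an unadjusted p under 0.05 and 0 in the authors' deposited table. Pcna stood at 199.6, 223 and 226 FPKM in Empty-lip and 197, 189.6 and 190.1 FPKM in Clod-lip. The Clod-lip libraries were all lower, Clod-lip 1 by less than 3 FPKM than Empty-lip 1 (log2 -0.17 ± 0.08, interval -0.35 to 0.01, limma adjusted p = 0.257). Tyms, thymidylate synthase, stood at 13.2, 12.8 and 13.2 FPKM against 12.3, 10.7 and 10.5 FPKM, without overlap (log2 -0.21, limma adjusted p = 0.255). Rrm1 and Rrm2 encode the subunits of ribonucleotide reductase, which makes deoxynucleotides. Rrm1 stood at 47.0 ± 0.843 and 44.1 ± 5.44 FPKM (log2 -0.10), with only Clod-lip 2, at 37.8 FPKM, outside the range of 46.1 to 47.8 FPKM of the other 5 libraries. Rrm2 stood at 93.2 ± 6.01 and 93.6 ± 16.5 FPKM, so its group means lay in the opposite order to its log2 change of -0.01 (interval -0.31 to 0.29), with Clod-lip 1 highest of all at 110.1 FPKM and Clod-lip 2 lowest at 77.2 FPKM. Tk1, thymidine kinase, stood at 52.4 ± 7.32 and 46.6 ± 4.89 FPKM (log2 -0.16), and its exons overlap those of Afmid on the opposite strand.

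Of the 21 mitosis genes, 0 passed, with 2 at an unadjusted p under 0.05, Ube2c and Kif11, and 0 called in the authors' deposited table. Among the cyclins, kinases and regulators, Ccnb2 stood at 41.5, 40.9 and 41.2 FPKM in Empty-lip and 40.7, 33.7 and 34.7 FPKM in Clod-lip. Ccnb2, a B cyclin, thus varied by less than 1 FPKM among Empty-lip libraries, and Clod-lip 1 lay just under them (log2 -0.18 ± 0.09, limma adjusted p = 0.295). Ccnb1, the other B cyclin of the set, stood at 49.7 ± 6.06 and 45.9 ± 6.77 FPKM (log2 -0.12), and Ccna2, cyclin A, at 52.3 ± 5.11 and 47.2 ± 5.44 FPKM (log2 -0.15). Cdk1, the kinase that these cyclins activate, stood at 28.8, 35.0 and 33.7 FPKM against 31.0, 27.9 and 26.0 FPKM, with Clod-lip 1 inside the Empty-lip range (log2 -0.19, limma adjusted p = 0.340). Aurka, the kinase of spindle poles, stood at 25.7, 25.3 and 27.0 FPKM against 24.7, 18.2 and 22.8 FPKM. The groups of Aurka did not overlap, with Clod-lip 2 far under the other Clod-lip libraries (log2 -0.25, limma adjusted p = 0.277). Aurkb, the kinase of the chromosomal passenger complex, stood at 22.0 ± 3.06 and 21.4 ± 0.131 FPKM (log2 -0.03), and Plk1, polo-like kinase 1, at 30.6 ± 4.81 and 26.7 ± 4.69 FPKM (log2 -0.19). Foxm1, a transcription factor that activates mitotic genes, stood at 13.5 ± 1.03 and 13.3 ± 2.61 FPKM (log2 -0.03), with its highest and lowest libraries both in Clod-lip. Exons of Ccna2 overlap those of Exosc9, and exons of Plk1 those of Gm44985, on the opposite strand. Exons of Foxm1 overlap those of Tex52 and Gm44596 on the same strand.

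In the spindle checkpoint and the anaphase promoting complex, Ube2c had the lowest log2 change of any mitosis gene. Ube2c stood at 77.0, 86.5 and 96.7 FPKM in Empty-lip and 70.8, 68.4 and 63.6 FPKM in Clod-lip. All Clod-lip libraries were lower, and the change was -0.35 ± 0.10 with an interval from -0.58 to -0.12 (limma adjusted p = 0.0945). In GENCODE M21, exons of Ube2c overlap those of Tnnc2, a troponin of fast muscle, on the opposite strand. That annotated Ube2c gene ends at 164778822 on chromosome 2, whereas the position deposited for Ube2c is shorter and runs from 164769928 to 164772902. Deposited positions of some other members are longer than the annotated gene. Among them, Gins2 spans 9.39 times its gene, Kif20a 6.13, Ccne2 4.68, Ccna2 2.66, Tk1 2.31 and Cdc20 2.08 times. Tnnc2 stood at 1609 ± 314 and 3123 ± 124 FPKM, and whether its reads enter the Ube2c level was not tested. Cdc20, the activator of that complex, stood at 43.0 ± 5.51 and 39.7 ± 2.16 FPKM (log2 -0.10), with Empty-lip 1 the lowest library, and its exons overlap those of Elovl1 on the opposite strand. The checkpoint genes Bub1 and Bub1b, which encode a kinase and BubR1, stood at 11.0 ± 0.890 and 9.74 ± 0.480 FPKM, and at 24.7 ± 2.44 and 21.9 ± 2.92 FPKM. Bub1 did not overlap between groups (log2 -0.16) and Bub1b did (log2 -0.17).

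Among genes of chromosome structure and the kinetochore, Mki67, the Ki-67 antigen used to count dividing cells, stood at 26.2, 26.3 and 28.5 FPKM in Empty-lip and 25.5, 23.2 and 25.2 FPKM in Clod-lip. Every Clod-lip library lay below every Empty-lip library, the nearest pair being less than 1 FPKM apart (log2 -0.13 ± 0.08, interval -0.32 to 0.06, limma adjusted p = 0.421). Top2a, the topoisomerase that untangles sister chromatids, stood at 48.4, 54.6 and 56.4 FPKM against 51.2, 40.3 and 45.4 FPKM. Its groups overlapped through Clod-lip 1 (log2 -0.22 ± 0.11, limma adjusted p = 0.290). Exons of Top2a overlap the small RNA gene Gm23451 on the same strand. Birc5, survivin, a passenger complex subunit, stood at 66.1 ± 7.64 and 63.0 ± 9.15 FPKM (log2 -0.07), and Cenpf, a kinetochore protein, at 6.68 ± 0.590 and 6.15 ± 0.478 FPKM (log2 -0.10). Birc5 and Tk1 are near neighbours on chromosome 11, 23.2 kb apart, and Cdc6 and Top2a lie 69.0 kb apart on that chromosome. In total 9 of the 40 genes lie on chromosome 2 and the 40 fall on 17 chromosomes.

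Of the 5 spindle and cytokinesis genes, 0 passed and 1 reached an unadjusted p under 0.05. Kif11, the motor that separates spindle poles, stood at 15.9, 15.9 and 17.0 FPKM in Empty-lip and 15.1, 12.0 and 13.5 FPKM in Clod-lip. The groups of Kif11 did not overlap (log2 -0.26 ± 0.10, interval -0.50 to -0.01, limma adjusted p = 0.205). Kif20a, a motor of cytokinesis, stood at 21.3 ± 2.41 and 17.9 ± 3.62 FPKM (log2 -0.25), with 14.1 FPKM in Clod-lip 2. Tpx2, which activates Aurora A on microtubules, stood at 26.2 ± 2.55 and 23.1 ± 2.69 FPKM (log2 -0.18), and Prc1, a bundler of midzone microtubules, at 36.6 ± 0.749 and 33.3 ± 3.72 FPKM (log2 -0.14). Nusap1, a spindle associated protein, stood at 12.8 ± 0.914 and 11.1 ± 1.02 FPKM (log2 -0.18). Exons of Kif20a, Nusap1 and Prc1 overlap those of Cdc23, Oip5 and Rccd1 on the opposite strand.

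Clod-lip 2 was the lowest of the 6 libraries for 28 of 40 members, 13 of replication and 15 of mitosis, against 16.7% of all genes tested, and lay under the Empty-lip mean in 40 of 40. Of the other 12 genes, Empty-lip 1 and Clod-lip 3 were lowest for 5 each, and Empty-lip 3 and Clod-lip 1 for 1 each. The highest library was Empty-lip 2 for 10 of 19 replication genes and Empty-lip 3 for 14 of 21 mitosis genes. Relative to the Empty-lip mean, the mean over the 40 genes on the log2 scale was -0.12, 0.06 and 0.06 in Empty-lip 1, 2 and 3, and -0.06, -0.31 and -0.13 in Clod-lip 1, 2 and 3. Empty-lip 1 thus lay below Clod-lip 1. By class, replication genes stood at -0.07, -0.32 and -0.11 in Clod-lip 1, 2 and 3 and mitosis genes at -0.05, -0.30 and -0.15. Without Clod-lip 2 the median log2 change was -0.06 for replication and -0.09 for mitosis genes, 34 of 40 were negative, and Gins1 was again the 1 gene called. Without Empty-lip 1 and Clod-lip 2 together the medians were -0.18 and -0.14, and 0 of 40 were called. Small RNA genes took 45.1%, 39.1% and 47.7% of summed FPKM in Empty-lip 1, 2 and 3, and 32.7%, 0.294% and 0.145% in Clod-lip 1, 2 and 3, so that share also differed between the groups. With those genes and entries that join several gene names left out of the fit, Gins1 was again called. The medians stayed at -0.16 and -0.17, which was fixed in advance because the FPKM were not rescaled. Whether the share bears on the FPKM of the 40 genes was not tested.

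**Figure D5:**
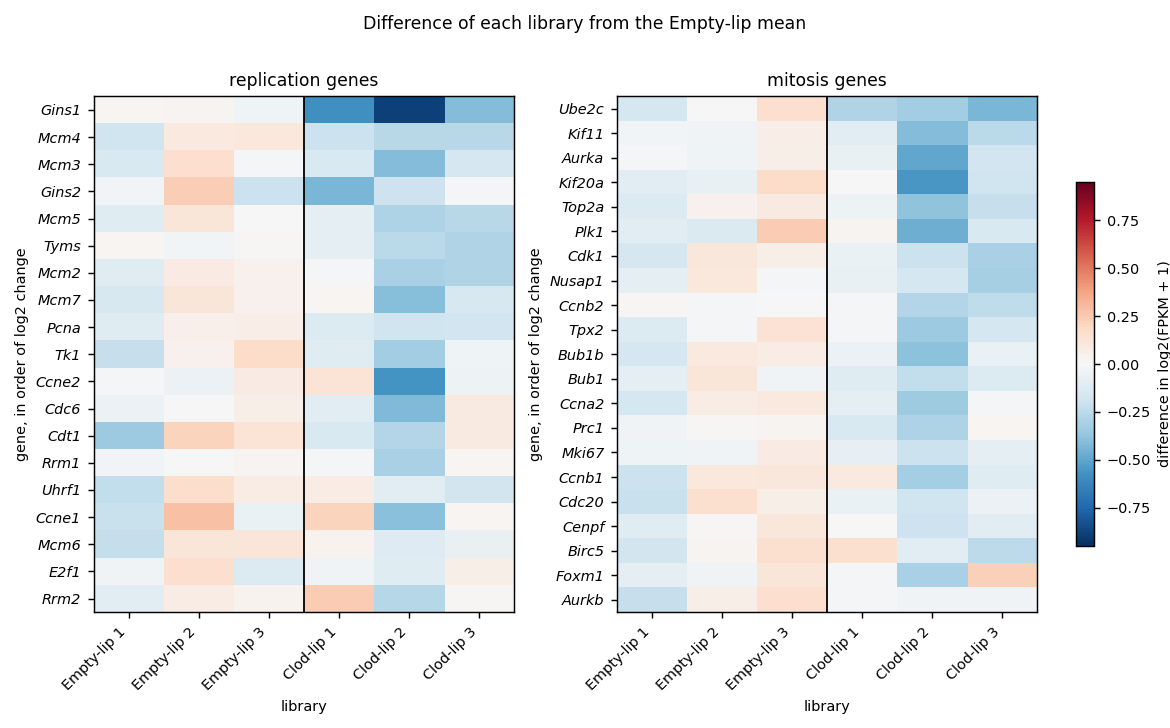
Difference in log2(FPKM + 1) of each library from the Empty-lip mean, by gene (rows, in order of log2 change) and library (columns), for replication and mitosis genes; blue is lower and red higher. Clod-lip 2 is the bluest column, lowest of the 6 for 28 of 40 genes, and Empty-lip 1 is also mostly blue, above the Empty-lip mean for 3 of 40.

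Marker genes of leukocytes differed between these same libraries. The 9 mature neutrophil markers tested summed to 1532, 712 and 586 FPKM in Empty-lip 1, 2 and 3 and to 823, 3695 and 1151 FPKM in Clod-lip 1, 2 and 3, and Clod-lip 2 was highest for 8 of the 9. Clod-lip 1 was lowest for 6 of the 9 and Clod-lip 3 for 0, and the sums of both lay within the Empty-lip range. S100a8 and S100a9, the subunits of calprotectin, made up most of each sum. S100a8 reached 1608 FPKM in Clod-lip 2, and its other values ran from 258 to 644 FPKM. None of these 9 markers passed (limma adjusted p = 0.352 for S100a8), and 0 of the 9 were listed at 0 in any library. Of 10 granulocyte progenitor markers, 8 rose. The smallest p was that of Ctsg, cathepsin G, whose log2 change was 1.85 ± 0.15 (1.01 ± 0.233 FPKM under Empty-lip, 6.22 ± 0.835 under Clod-lip, limma adjusted p = 0.00602). Ngp, a granule protein, averaged 23.8 ± 5.40 and 83.9 ± 11.6 FPKM. That list summed to 90.7 to 146 FPKM under Empty-lip, against 216 to 295 FPKM under Clod-lip, with Ms4a3 listed at 0 in Empty-lip 2. Chi3l3 was the largest entry of the list in each Empty-lip library, at 75.45, 86.7 and 42.8 FPKM, against 42.3, 72.9 and 43.7 FPKM in Clod-lip. It was the 1 marker of the list with a negative log2 change (-0.34, limma adjusted p = 0.558). The part of these cells in the levels of the 40 genes was not tested.

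Macrophage, monocyte and contractile fibre lists also held several calls. Of the 15 macrophage markers, 4 fell, 0 rose and 14 were negative, with Fcgr1, an Fc receptor, which averaged 91.0 ± 6.77 FPKM under Empty-lip and 32.9 ± 17.4 FPKM under Clod-lip, and Lgmn, legumain, which averaged 787 ± 53.1 and 487 ± 81.3 FPKM. The macrophage list summed to 7933 to 8420 FPKM under Empty-lip, against 4465 to 7680 FPKM under Clod-lip, with the highest Clod-lip value in Clod-lip 2. Lyz2, a lysozyme, made up most of each sum. It stood at 4207, 4279 and 4450 FPKM in Empty-lip and 2950, 4249 and 2393 FPKM in Clod-lip, and did not pass (limma adjusted p = 0.217). Of 9 monocyte markers 3 fell and 7 were negative, with a list median of -0.54. Among those that fell were Ccr2, a chemokine receptor, and Ms4a4c, with log2 changes of -1.34 and -1.99. The positive ones, Nr4a1 and Ace, had log2 changes of 1.20 and 0.38, without overlap, and did not pass (limma adjusted p = 0.0655 and 0.0544). Of 16 contractile fibre markers 15 rose, among them Myh4, a fast myosin, from 442 ± 62.3 to 1008 ± 119 FPKM, and Atp2a1, a calcium pump, from 612 ± 113 to 1418 ± 137 FPKM, and the list summed to 13904 to 19205 FPKM under Empty-lip, against 30345 to 33076 FPKM under Clod-lip. Satellite cell and myoblast markers did not pass in 10 of 10, with a median of 0.02. Des, desmin, the highest of them, stood at 840, 656 and 678 FPKM against 992, 946 and 1140.4 FPKM, without overlap (log2 0.51 ± 0.12, limma adjusted p = 0.0655). Of 8 endothelial, 5 cartilage, 5 erythroid and 3 B lineage markers tested, 0 passed, with Igll1 of the B lineage listed at 0 in every library. Their genes of highest mean had log2 changes of 0.22 for Pecam1 (endothelial), 0.38 for Comp (cartilage), -0.16 for Hba-a2 (erythroid) and 0.02 for Cd79b (B lineage). The osteoblast transcription factor Sp7 reached at most 0.627 FPKM, in Clod-lip 2, while Runx2 had a mean of 4.51 FPKM. Thy1, held by both the T cell and the fibroblast list, fell with a log2 change of -0.37 as the 1 call of 10 fibroblast and of 5 T cell markers tested, and Spp1, osteopontin, fell with one of -1.11 as the 1 call of 6 osteoblast markers tested. The part of these cells in the levels of the 40 genes was not tested either.

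Other genes of the same pathways were taken from 8 lists. Among 153 such genes, of which every one was tested, the calls were 1 lower and 0 higher, beside 1.21% and 2.84% of all genes. A negative sign was seen for 112 of 153, beside 51.9% of all genes, and the median log2 change was -0.10, beside -0.01. The 1 that fell was Umps, which makes uridine monophosphate, at 19.7, 19.0 and 19.9 FPKM in Empty-lip and 13.5, 15.4 and 14.3 FPKM in Clod-lip, without overlap. Its log2 change was -0.42 ± 0.09 (limma adjusted p = 0.0452), and the call was lost in 9 of 16 alternatives, among them leaving out any library but Clod-lip 2, with an adjusted p between 0.0236 and 0.156. By list, the median was -0.09 for 16 genes of origin recognition and firing, where Tipin, a fork protection protein, stood at 34.4 ± 1.01 and 32.2 ± 5.47 FPKM. It was -0.10 for 24 fork enzymes, where Rpa1, a single strand binding protein, stood at 43.4 ± 3.81 and 37.2 ± 3.32 FPKM, and -0.06 for 12 genes of nucleotide synthesis.

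On the mitotic side the median was -0.15 for 22 kinetochore and checkpoint genes and -0.11 for 38 genes of the spindle, cytokinesis and condensin. Bub3, a checkpoint protein, stood at 53.6 ± 5.64 and 46.4 ± 3.37 FPKM, and Cks1b, a Cdk subunit, had means of 83.5 and 81.7 FPKM (log2 -0.04 ± 0.12, limma adjusted p = 0.883). For 10 G1 cyclins and kinases it was -0.13, with Cdk4, the partner of D cyclins, at 188 ± 10.4 and 165 ± 21.5 FPKM. The 15 other E2F and MuvB genes had a median of -0.02, with the E2F partner Tfdp1 at 71.2 ± 1.68 and 71.8 ± 7.12 FPKM. The 16 Cdk inhibitors and pocket proteins, which restrain the cycle, had a median of 0.01 with 7 of 16 negative, and Cdkn1a, p21, stood at 172 ± 8.68 and 157 ± 13.6 FPKM. Whether these lists differed from one another was not tested.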

How the data were processed

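The authors deposited FPKM per library for 23351 genes with group means, and a comparison with p-values and q-values. Per the submitters' processing notes, TopHat and build mm10 were used; versions, the counting tool, its use of strand and any scaling between libraries have no entry in them. FPKM are not counts, so no count test was run. In values up to 0.5 FPKM, 87.5% to 90.2% of genes lay on ratios of whole numbers up to 6 (tolerance 0.5%), giving relative depths of 0.995 to 1.13 (Empty-lip 1 being the unit) if values were not scaled further; depth in reads is unknown, so no counting interval is given. Genes other than small RNA genes summed to 561151 to 605995 FPKM. Pairs of libraries correlated at 0.950 to 0.977 across genes. Columns were matched to samples by group name and by the number in the description.

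The test was limma (version 3.58.1, R 4.3.3), with its prior variance following mean level. It took log2(FPKM + 1) of the 13408 genes whose mean reached 0.5 FPKM, with Benjamini-Hochberg adjustment and a limit of 0.05. The simulated data used to check it had independent noise and planted rises larger than any change of the members. That check therefore does not cover changes as small as theirs. Changes on this scale understate those of low genes. Members, lists and tests were chosen with earlier results of these data known. Given in full are Mki67, Top2a, Pcna, the MCM genes, every called member and the 6 of smallest p per class; of each pathway or cell list, up to 3 or 2 called genes, or the 1 of highest mean. Sp7, Runx2, S100a9, Ms4a3, Chi3l3, Lyz2, Nr4a1, Ace, Igll1 and Tnnc2 were added after their values were seen. Overlaps and positions are from GENCODE M21 on the same build. Lists are described by counts and medians only. The alternatives are named in the closing section.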

Additional observations from a re-analysis of the deposited data

How the results depend on the processing

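No mitosis gene passed under any of 16 alternatives, and 30 of the 40 members kept a negative sign in all 16. Over the libraries left out in turn the median log2 change ran from -0.22 to -0.06 for replication and from -0.23 to -0.09 for mitosis genes. The genes called over the whole table, 543, became 312 with no filter on low values, 284 without a trend and 1101 without Empty-lip 1 and Clod-lip 2 together, and over libraries left out the lowest was 2 (Empty-lip 2 omitted) and the highest 1392 (Clod-lip 2 omitted). The 1 replication call became 0 in those 3 alternatives and ran from 0 to 1 over libraries left out. The 1 other pathway call became 0 with no filter and without a trend, 3 with a mean of at least 5 FPKM and 2 with quantile normalization, and ran from 0 to 1 over libraries left out; the cause was not tested. With the replicate number as a block, 170 genes, 0 replication members and 0 pathway genes were called. Same-numbered libraries had correlations of their deviations of -0.08, -0.04 and 0.08, so no strong shared deviation was seen. Whether the numbers pair samples is not given in the labels, and these correlations cannot decide it.

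Signs of small changes that had not passed turned over. Over libraries left out, Ccne1 ran from -0.19 to 0.11, Ccne2 from -0.31 to 0.040, E2f1 from -0.095 to 0.050, Uhrf1 from -0.19 to 0.0098, Mcm6 from -0.17 to 0.0021, Rrm1 from -0.16 to 0.0060, Rrm2 from -0.13 to 0.12, Aurkb from -0.14 to 0.051, Foxm1 from -0.16 to 0.10, Birc5 from -0.18 to 0.019, Tipin from -0.22 to 0.018, Cks1b from -0.15 to 0.077, Tfdp1 from -0.069 to 0.065 and Cd79b from -0.12 to 0.18. Without Empty-lip 1 and Clod-lip 2 together, Ccne1 was at 0.0066, Ccne2 at 0.030, Rrm2 at 0.070, Foxm1 at 0.061, Tipin at 0.0012 and Cks1b at 0.030, and with quantile normalization Rrm2 was at 0.026 and Cd79b at -0.034. Depth could not be derived in reads, so counting error is not separated from other spread.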
